A study of Mus musculus with 4 samples.

Results

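The transcripts examined here encode the glucose transporter GLUT1 (Slc2a1) and 9 enzymes that carry glucose to lactate: Hk1, Gpi1, Aldoa, Tpi1, Gapdh, Pgk1, Pgam1, Eno1 and Ldha. They were taken by gene name from the 56493 genes of the deposited count table as forms that most tissues use. Forms largely confined to muscle, such as Pgam2 and Eno3, were not included, but muscle also expresses several of the 10, among them Aldoa and Ldha. All 10 were present and each had a count in at least 1 library. The name Aldoa stood on 2 rows, of which 1 had 0 counts in every library, and the other was used. Of the 10 genes, 8 passed the filter on low counts and were tested among 4243 genes, while Slc2a1 and Eno1 did not pass.

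RNA came from the epidermal sheet of dorsal skin of Mus musculus. In 2 libraries (cKO) the mice lacked Stim1 and Stim2 in epithelium, through a Cre recombinase under the keratin 14 promoter. In 2 libraries (control) the mice carried the floxed alleles of both genes (Stim1/2 fl/fl). STIM1 and STIM2 sense calcium in the endoplasmic reticulum and switch on calcium entry across the cell surface once that store is emptied. The labels give no age or sex, and do not say whether each library came from 1 animal, so p-values measure the spread between these libraries only. The Cre acts in keratin 14-expressing cells, whereas the sheet also holds other cell types.

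Glycolysis splits glucose into pyruvate in the cytosol and yields ATP without oxygen. Hexokinase traps the sugar, aldolase cleaves it, glyceraldehyde-3-phosphate dehydrogenase and the enzymes after it recover ATP and NADH, and lactate dehydrogenase regenerates the NAD+ that the pathway needs. The epidermis has no blood vessels of its own and keratinocytes are known to make much lactate. The transcription factors HIF1 and MYC are known activators of many of these genes, and Gapdh is often used as a reference gene in expression assays.

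The libraries were shallow, with totals of 118858 to 322426 counts, so that single genes of the pathway had between 0 and 139 counts in a library. Values are given as counts and as CPM, which are counts divided by a TMM-adjusted library size. The limit that a count of 0 allows, 3 counts, was 12.1 and 33.7 CPM for the cKO libraries (replicates 1 and 2) and 16.01 and 9.58 CPM for the control libraries. The targeted genes were lower in both cKO libraries, with 23 and 6 counts of Stim1 (control 24 and 62) and 0 and 1 counts of Stim2 (control 3 and 18). Neither passed the threshold (edgeR adjusted p 0.671 for Stim1 and, without a count filter, 0.808 for Stim2). The 8 basal keratinocyte markers took 0.488% to 0.913% of each library, and the 6 endothelial markers together had at most 1 count in any library.

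None of the 8 tested glycolysis genes passed an adjusted p of 0.05 in edgeR's quasi-likelihood test, in either direction, where 0.848% of all tested genes did. DESeq2 and limma-voom also called 0 of the 8. At an unadjusted p under 0.05, Gapdh and Ldha were higher in cKO and 0 were lower, against 4.22% of all tested genes higher and 4.17% lower. The fitted fold change was above 0 for 7 of the 8, as for 50.4% of all tested genes. Their median log2 fold change was 0.86 beside 0.01 over all tested genes. In 5 of the 8 (Aldoa, Tpi1, Gapdh, Pgk1 and Ldha) both cKO libraries lay above both control libraries, a separation found for 18.9% of tested genes, and in 0 of the 8 both lay below, as for 19.6%. The separation depended on scaling, since with library totals it held for 3 of the 8 (Tpi1, Gapdh and Ldha), where the shares over all tested genes were 11.9% higher and 27.6% lower.

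**Figure D1:**
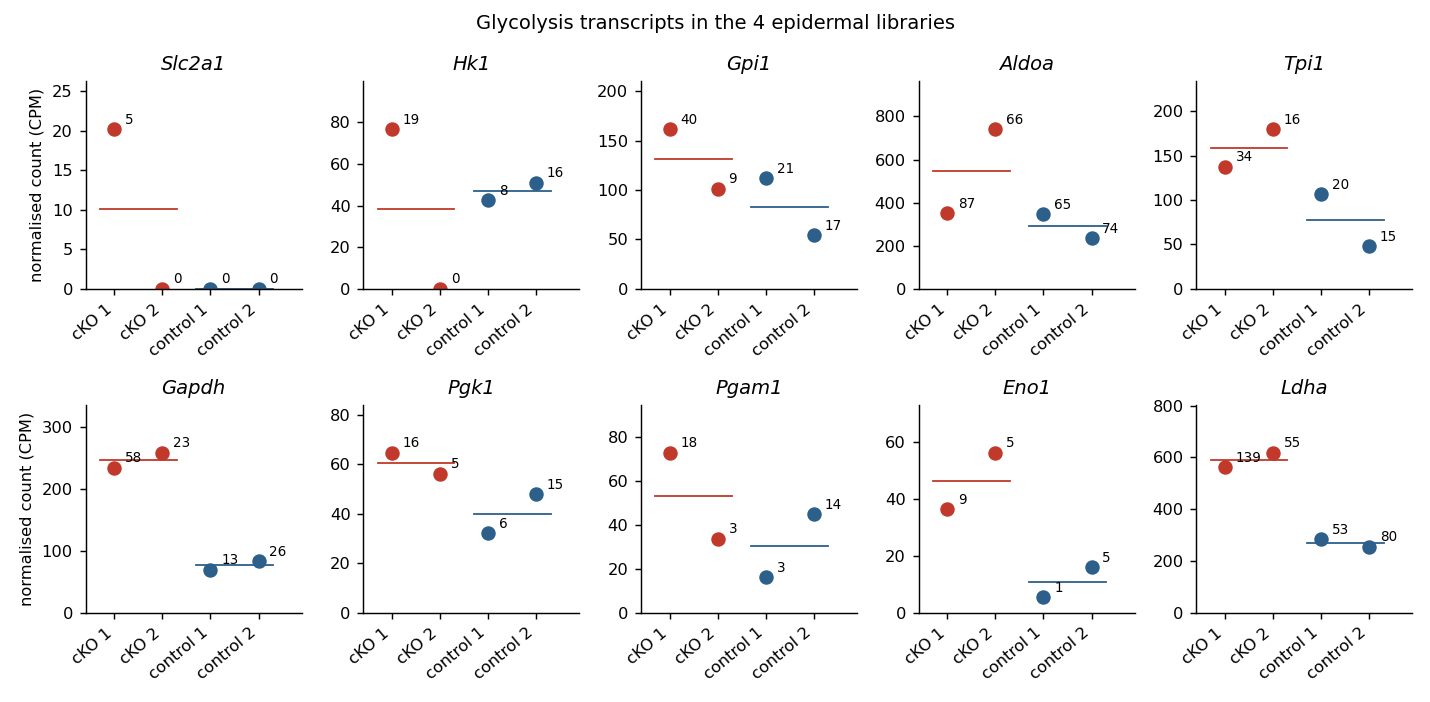
Normalised counts (CPM, y axis from 0, a scale of its own in each panel) of the 10 glycolysis genes in each of the 4 libraries, with the raw count beside each point and the group mean as a line (red cKO, blue control; n = 2 libraries each). Gapdh and Ldha show both cKO points far above both control points with close replicates, whereas Hk1 and Slc2a1 have a cKO library at 0.

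Summed over the 10 genes, glycolysis transcripts took 0.151% of the counts in cKO replicate 1 (425 counts, 95% Wilson interval 0.137% to 0.166%) and 0.153% in cKO replicate 2 (182 counts, 0.132% to 0.177%). They took 0.0949% in control replicate 1 (190 counts, 0.0823% to 0.109%) and 0.0813% in control replicate 2 (262 counts, 0.0720% to 0.0917%). The replicates of each group had overlapping intervals, and no cKO interval overlapped a control interval. The intervals cover counting error only. The group means were 0.152% ± 0.0018 (SD, n = 2) in cKO and 0.0881% ± 0.0096 (SD, n = 2) in control, a ratio of 1.72. On the TMM scale the sums were 1882 ± 231 CPM in cKO and 925 ± 125 CPM in control (SD, n = 2), a ratio of 2.03. Pooled by genotype, 607 of 401048 counts in cKO and 452 of 522719 in control were from these genes. No p is given for the sum, since the genes in it were chosen with results of these data known. Ldha and Aldoa supplied 30.9% and 27.6% of the summed counts. Without Ldha the shares were 0.101% and 0.107% in cKO and 0.0684% and 0.0564% in control, still without overlap.

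Among the transporter and the first enzymes, Slc2a1 and Hk1 had few counts. Slc2a1 (ENSMUSG00000028645, chromosome 4, 118965908 to 118995180), which brings glucose into the cell, had 5 counts in cKO replicate 1 and 0 in the other 3 libraries, so no fold change is given. Hk1 (ENSMUSG00000037012, chromosome 10, 62104634 to 62215687), which phosphorylates glucose, had 19 and 0 counts in the cKO pair against 8 and 16 in the control pair. Its normalised values were 76.8 and 0 CPM in cKO and 42.7 and 51.1 CPM in control. The cKO libraries thus lay on either side of the control libraries, and the log2 fold change of Hk1 was -0.01 (edgeR adjusted p 0.999). It became 0.70 without cKO replicate 2. Gpi1 (ENSMUSG00000036427, chromosome 7, 33900755 to 33929761), which converts glucose 6-phosphate to fructose 6-phosphate, had 40 and 9 counts in the cKO pair against 21 and 17 in the control pair, or 162 and 101 CPM against 112 and 54.3 CPM. The groups overlapped, and the log2 fold change of 0.74 ± 0.57 (SE) had an edgeR adjusted p of 0.838. It was 0.28 without cKO replicate 1, 0.29 without control replicate 2 and 1.31 without control replicate 1.

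Aldoa (ENSMUSG00000030695, chromosome 7, 126394406 to 126399923), the aldolase that splits fructose 1,6-bisphosphate, had 87 and 66 counts in the cKO pair against 65 and 74 in the control pair. On the CPM scale these were 352 and 742 in cKO and 347 and 236 in control, so that cKO replicate 2 stood apart and cKO replicate 1 was level with control replicate 1. The log2 fold change of Aldoa was 0.88 ± 0.48 (SE; edgeR adjusted p 0.704), and it was 0.29 without cKO replicate 2. That library also had the highest share of fibroblast markers, 0.0581% against 0.00461% in cKO replicate 1 and 0.0146% to 0.0270% in control. Its shares of sebocyte (0.205%), adipocyte (0.0135%), melanocyte (0.0328%) and neutrophil and macrophage markers (0.0210%) were the highest of the libraries as well. The part of any of these cells in its Aldoa value was not tested. Tpi1 (ENSMUSG00000023456, chromosome 6, 124787549 to 124791259), which interconverts the triose products of aldolase, had 34 and 16 counts in the cKO pair against 20 and 15 in the control pair. Its values of 137 and 180 CPM in cKO lay above 107 and 47.9 CPM in control, with the widest gap to control replicate 2. The log2 fold change of Tpi1 was 1.05 ± 0.56 (SE; edgeR adjusted p 0.692), 0.56 without control replicate 2 and 1.69 without control replicate 1.

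Gapdh (ENSMUSG00000057666, chromosome 6, 125138678 to 125143430), which oxidises glyceraldehyde 3-phosphate, had the largest log2 fold change of the tested glycolysis enzymes in this set. It had 58 and 23 counts in the cKO pair against 13 and 26 in the control pair, or 235 and 258 CPM against 69.4 and 83.0 CPM. The means were 247 ± 16.9 CPM in cKO and 76.2 ± 9.66 CPM in control (SD, n = 2). The replicates of each group were close and the groups far apart, but an SD from n = 2 is itself uncertain. The log2 fold change of Gapdh was 1.67 ± 0.47 (SE), with an unadjusted p of 0.00348 that ranked 82 of 4243 genes and an edgeR adjusted p of 0.177. With each library left out in turn, it stayed between 1.56 and 1.83, and its adjusted p was between 0.159 and 0.717.

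The mouse genome holds many near-identical copies of Gapdh, which bears on how its reads were counted. With blastn, 95 other genes matched Gapdh transcripts at 95% identity or more along 150 or more bases, 91 of them pseudogenes, and 94 matched within the last 400 bases of a Gapdh transcript, the end that a 3' kit reads. All 95 were in the count table, and 34 had a count. Together the copies had 75 and 27 counts in the cKO pair against 16 and 29 in the control pair, more than Gapdh itself in each library. The pseudogenes Gm5559, Gm12033 and Gm13394, each 99.9% identical to Gapdh, had the most, with 15, 14 and 13 counts in cKO replicate 1. When all copies were added to Gapdh, an alternative chosen after seeing the data, the counts were 133 and 50 in cKO and 29 and 55 in control. These were 538 and 561 CPM against 155 and 176 CPM, again with close replicates. The log2 fold change was then 1.72 ± 0.43 (SE; edgeR unadjusted p 0.00138, adjusted p 0.0988). The adjusted p with copies was 0.0904 in DESeq2, 0.0674 in limma-voom and 0.421 with the replicate number as a block, and 0.067 to 0.548 with a library left out. How reads that align to several places were counted is not given in the sources used here. A read may therefore stand in more than 1 of these counts, and the level of Gapdh is uncertain. The standard errors and p-values with copies added would then be too small, so they add no weight to the difference.

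**Figure D2:**
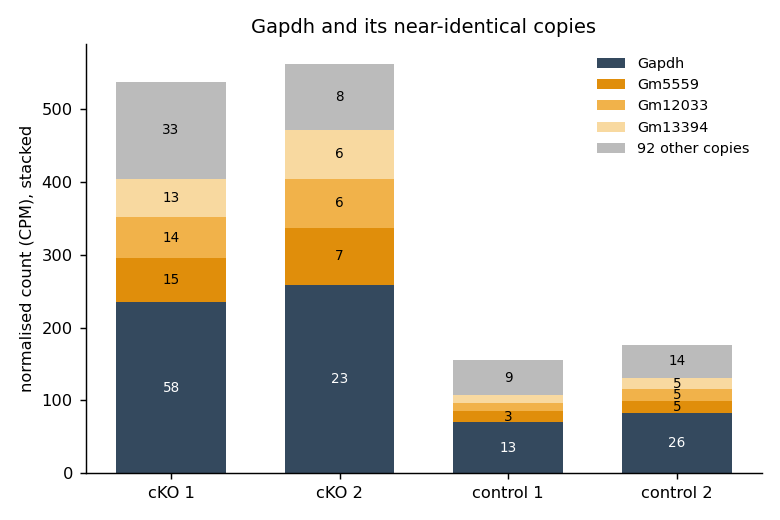
Normalised counts (CPM, y axis from 0) of Gapdh and of the 95 genes nearly identical to it, stacked for each of the 4 libraries, with raw counts printed inside segments that are tall enough. The stacks of the cKO libraries are 538 and 561 CPM high with copies (155 and 176 CPM in control, in the fit that merges them), and the copies are the larger segment in each.

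Of the enzymes after Gapdh, Pgk1, Pgam1 and Eno1 had few counts. Pgk1 (ENSMUSG00000062070, chromosome X, 105230706 to 105247305), which makes the first ATP of the pathway, had 16 and 5 counts in the cKO pair against 6 and 15 in the control pair. At 64.7 and 56.2 CPM against 32.02 and 47.9 CPM the groups did not overlap, but the log2 fold change of 0.58 was smaller than its standard error of 0.73 (edgeR adjusted p 0.946). It was 0.35 without control replicate 1 and 0.93 without control replicate 2. Pgam1 (ENSMUSG00000011752, chromosome 19, 41900362 to 41907099), a phosphoglycerate mutase, had 18 and 3 counts in the cKO pair against 3 and 14 in the control pair. Each group held a low and a high library, and its log2 fold change of 0.83 ± 0.84 (SE) was 0.34 without control replicate 1 and 1.78 without control replicate 2. Eno1 (ENSMUSG00000063524, chromosome 4, 150321178 to 150333336), the enolase of most tissues, had 9 and 5 counts in the cKO pair against 1 and 5 in the control pair, or 36.4 and 56.2 CPM against 5.34 and 15.97 CPM. The groups did not overlap, and in the fit without a count filter the log2 fold change was 1.82 ± 1.08 (SE; edgeR unadjusted p 0.0909, adjusted p 0.911). Eno1 has 4 near-identical genes in the reference, among them Eno1b at 99.5% identity, which had 1 and 2 counts in the cKO pair against 1 and 0 in the control pair.

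Ldha (ENSMUSG00000063229, chromosome 7, 46490899 to 46505051), the lactate dehydrogenase subunit that favours lactate formation, had the most counts of the set. It had 139 and 55 counts in the cKO pair against 53 and 80 in the control pair, or 562 and 618 CPM against 283 and 255 CPM. The means were 590 ± 39.7 CPM in cKO and 269 ± 19.3 CPM in control (SD, n = 2), and both cKO values lay above both control values. An SD from 2 libraries is too uncertain to measure the gap against. The log2 fold change of Ldha was 1.13 ± 0.42 (SE), with an unadjusted p of 0.0178 and an edgeR adjusted p of 0.428. It was among the steadiest of the set, at 1.07 to 1.20 with each library left out. Its 5 near-identical pseudogenes added 2 counts in cKO replicate 2 and 0 in the other libraries.

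**Figure D3:**
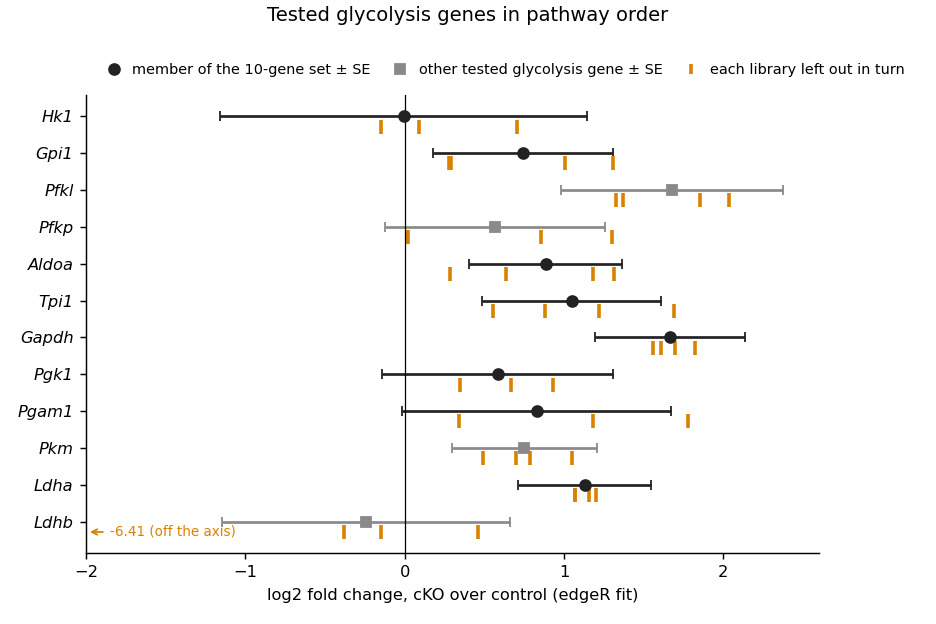
Log2 fold change of cKO over control (x axis, edgeR fit) for the 8 tested members of the set and 4 other tested glycolysis genes, in pathway order, with bars of 1 standard error and orange ticks for the value with each library left out in turn (only where the gene was then still tested). Gapdh at 1.67, Pfkl at 1.68 and Ldha at 1.13 have all their ticks above 1, whereas the ticks of Hk1, whose bar is unreliable because its fold change is near 0, fall on both sides of 0. The value of -6.41 printed for Ldhb is fitted to a lone cKO library with 0 counts. Pfkl passed the count filter only through its cKO libraries.

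Pooling the 2 libraries of each genotype gives the precision that counting alone allows for each gene. The ratio of cKO to control (TMM scale, exact 95% interval from the pooled counts) was 3.09 for Gapdh (2.08 to 4.65), 2.17 for Ldha (1.73 to 2.73), 2.13 for Tpi1 (1.35 to 3.37), 1.92 for Gpi1 (1.23 to 3.01) and 1.64 for Aldoa (1.29 to 2.08). It was 3.47 for Eno1 (1.25 to 11.03), from only 14 and 6 counts. The intervals of Pgam1 (0.924 to 3.71), Pgk1 (0.773 to 2.86) and Hk1 (0.610 to 2.24) included a ratio of 1. These intervals leave out the spread between libraries and are therefore too narrow for a comparison of genotypes. The edgeR standard errors, which include that spread, ran from 0.42 for Ldha to 0.84 for Pgam1 on the log2 scale, leaving out Hk1, whose fold change is too near 0 for the estimate to be reliable. The smallest absolute log2 fold change among the 36 genes called in the whole table was 2.31, above that of every tested glycolysis gene.

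Levels were compared between genes per kilobase of the deposited feature length, although a 3' kit reads mainly the transcript end and its counts need not scale with length. On that scale Aldoa (188 and 100.2 CPM per kb in cKO and control) and Ldha (178 and 81.3) stood above the rest in both genotypes. In control, Ldha ranged from 77.2 to 85.4 and Aldoa from 81.2 to 119 over the libraries, so their order did not hold beyond the spread. Tpi1 (28.1), Gapdh (18.4), Pgk1 (17.8), Pgam1 (15.3) and Gpi1 (12.9) followed in control within overlapping ranges, and Hk1 (5.50), Eno1 (1.98) and Slc2a1 (0) came last. In cKO, Gapdh (59.6) and Tpi1 (57.6) stood next after the top pair with overlapping libraries. The near-identical copies of Gapdh, which held more counts than Gapdh itself in each library, are left out here. The place of Gapdh in either order is therefore uncertain.

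The 250 bases before the transcription start were examined for ACGTG on either strand (CACGT on the other). This motif is contained in known HIF1 and MYC recognition sites, and HIF1 and MYC are known to act on glycolysis genes. Forms of these sites without ACGTG were not searched. In the RefSeq promoter table (GRCm38.p6, another build than the GRCm39 named for the counts), all 10 genes matched by symbol with 16 start sites. At least 1 window of 5 of the 10 genes held the motif (Slc2a1, Aldoa, Pgk1, Pgam1 and Ldha), against 18.5% of all genes in that table and 26.6% of the 3152 tested genes with an entry. Of single windows, 6 of 16 (37.5%) held it, against 16.6% of all windows. Windows of a gene can overlap, and both matching Aldoa windows hold the same site, so the windows are not independent. The windows of the 2 genes with the lowest unadjusted p, Ldha (the first of its 2 listed starts) and Gapdh, are printed with that of Pgk1 to show a promoter with several matches, 1 with none and 1 with a facing pair. Ldha lies at chr7:46845554-46845803 on the plus strand, Pgk1 at chrX:106186850-106187099 on the plus strand and Gapdh at chr6:125165774-125166023 on the minus strand, each written 5' to 3' with the motif in capitals.
Ldha: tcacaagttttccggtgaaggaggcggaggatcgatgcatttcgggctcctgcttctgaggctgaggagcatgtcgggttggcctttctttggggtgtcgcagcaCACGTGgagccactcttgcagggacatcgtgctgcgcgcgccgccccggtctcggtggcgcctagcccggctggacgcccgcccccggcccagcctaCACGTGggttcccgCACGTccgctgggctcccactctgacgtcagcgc
Pgk1: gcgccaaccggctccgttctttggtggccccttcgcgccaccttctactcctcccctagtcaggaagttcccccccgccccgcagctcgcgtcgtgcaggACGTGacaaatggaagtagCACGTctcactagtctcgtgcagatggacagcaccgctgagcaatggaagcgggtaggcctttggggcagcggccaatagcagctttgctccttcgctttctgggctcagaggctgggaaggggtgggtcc
Gapdh: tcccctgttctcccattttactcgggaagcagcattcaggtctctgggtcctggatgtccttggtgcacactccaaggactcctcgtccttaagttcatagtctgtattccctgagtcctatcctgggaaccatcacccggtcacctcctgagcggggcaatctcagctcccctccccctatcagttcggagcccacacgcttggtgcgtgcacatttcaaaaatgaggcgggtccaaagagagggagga
In the Ldha window the motif stands in 3 places, of which 2 read CACGTG, where the matches of both strands overlap. The Pgk1 window holds 1 match on each strand, and the Gapdh window none. A match describes the letters only and does not show that a factor binds there.

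The remaining glycolysis genes were read in the same fit. Of 24 other transporters, steps and isoforms, 15 had a count, 4 were tested and 0 were called (0.848% of all tested genes were), with 1 higher at an unadjusted p under 0.05 (4.22% of all tested genes). Pfkl, the liver-type phosphofructokinase, had 26 and 7 counts in the cKO pair against 7 in each control library, or 105 and 78.7 CPM against 37.4 and 22.4 CPM. Its log2 fold change was 1.68 ± 0.70 (SE; edgeR unadjusted p 0.0316, adjusted p 0.495). Pfkl, the 1 gene of this list at an unadjusted p under 0.05, passed the count filter only through its cKO libraries. Its direction was therefore largely set by the filter and is given as a description. For Pkm, the pyruvate kinase of most tissues, 58 and 23 counts in cKO stood against 33 and 37 in control, with a log2 fold change of 0.75 ± 0.46 (SE; adjusted p 0.740) with both cKO values above both control values. Pkm was at 0.49 without control replicate 2. Pfkp, the platelet-type phosphofructokinase, overlapped between groups at 0.57 ± 0.69, and was at 0.02 without cKO replicate 1 or without control replicate 2 and at 1.302 without control replicate 1. Ldhb, the other lactate dehydrogenase subunit, was at -0.24 ± 0.90 with 18 and 0 counts in cKO against 9 and 18. Summed, the 24 genes were at 0.0493% and 0.0488% of all counts for cKO and 0.0439% and 0.0310% for control. The groups did not overlap, but the 95% Wilson intervals of cKO replicate 2 (0.0378% to 0.0631%) and control replicate 1 (0.0357% to 0.0541%) did.

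The muscle forms lay on the other side. Pgam2, the mutase of muscle, had 0 and 1 counts in the cKO pair against 6 and 9 in the control pair, and Eno3, the enolase of muscle, had 0 and 2 against 5 and 11. Both fell under the count filter and were not tested, and they were singled out after their values were seen. Skeletal muscle markers moved with them. The 16 markers were at 0.0039% and 0.0126% of all counts for cKO but 0.145% and 0.106% for control, all 7 tested markers were lower in both cKO libraries than in both control libraries, and 4 were called lower (0.189% of all tested genes were). All 7 passed the count filter through their control counts (at most 6 in a cKO library), so their direction was largely set by the filter and is given as a description. Of the 16 markers, 10 were at 0 in both cKO libraries, among them Myh4 and Pvalb, and 0 of the 16 in both control libraries. Of the 17179 genes with a count, 18.5% were at 0 in both cKO libraries and 10.8% in both control libraries, and cKO replicate 2 was the shallowest library. Muscle also expresses Aldoa, Gapdh, Pgk1 and Ldha, and the part of muscle RNA in their control counts was not tested. In bulk RNA, fewer cells of a type and less RNA per cell cannot be told apart.

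**Figure D4:**
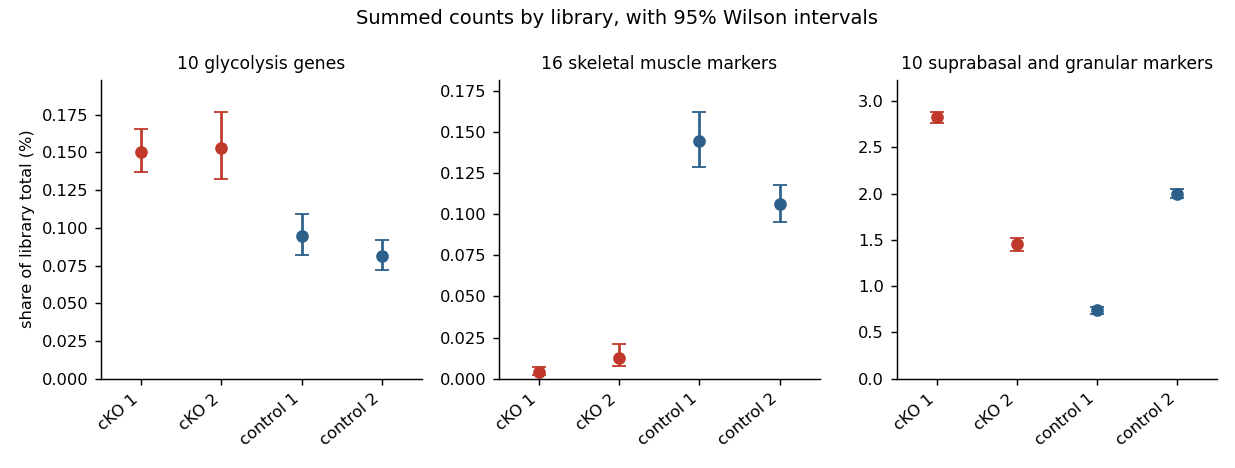
Share of each library's total count (y axis, percent, from 0) taken by the 10 glycolysis genes, 16 skeletal muscle markers and 10 suprabasal and granular keratinocyte markers in the 4 libraries, with 95% Wilson intervals that cover counting error only. Glycolysis genes are at 0.151% and 0.153% in cKO against 0.0949% and 0.0813% in control, muscle markers are higher in control, and the keratinocyte markers overlap between the groups.

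Other cell type markers were set beside the glycolysis sum. The suprabasal and granular markers were at 2.82% and 1.45% of all counts for cKO but 0.739% and 2.00% for control, so their sum overlapped between the groups although 3 of its 10 members were called higher (0.66% of all tested genes were). The sum of the T cell markers was lower in both cKO libraries (0.0143% to 0.0223% against 0.0254% to 0.0344%). So was that of the hair shaft and inner root sheath markers (0.0269% to 0.0365% against 0.126% to 0.131%), but nearly all of its counts came from Tchh, with 99 and 26 for cKO and 257 and 398 for control, and the other members had at most 3 counts in a library. The sums of the other 9 marker lists (basal keratinocytes, sebocytes, fibroblasts, endothelium, adipocytes, erythroid cells, melanocytes, Langerhans cells, and neutrophils with macrophages) overlapped between the groups. The part of these cells in the glycolysis values was not tested.

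The pathways next to glycolysis had 0 called genes by edgeR in every list, where 0.848% of all tested genes were called. At an unadjusted p under 0.05 in edgeR, 4.22% of all tested genes were higher and 4.17% lower. Of the 7 tested genes for lactate and pyruvate handling, 1 was higher at that p, and their median log2 fold change was -0.01. That gene was Slc16a1, the lactate transporter MCT1, with 22 and 13 counts in the cKO pair against 0 and 14 in the control pair. Its log2 fold change of 2.14 ± 0.90 (SE, edgeR adjusted p 0.500) rests on the 0 of control replicate 1. It was 1.34 without that library. Without control replicate 2 the adjusted p was 0.0176, but the lone control library then has 0 counts, so no fold change is given, and it is assumed to vary like the cKO libraries. The 4 tested pentose phosphate genes had a median of 0.29, with 0 at an unadjusted p under 0.05, Pgd at 0.86 ± 0.59 and Taldo1 at -0.57 ± 0.52. With a library left out Pgd ran from 0.26 (without cKO replicate 2) to 1.54 (without control replicate 2), and Taldo1 from -1.24 (without cKO replicate 1) to -0.17 (without control replicate 2). The 9 tested genes of the citric acid cycle had a median of 0.03 and 0 at an unadjusted p under 0.05, with Sdhc at -0.84 ± 0.68 and Cs, citrate synthase, at 0.57 ± 0.47. Without a library, Sdhc ran from -1.10 to -0.53 (the latter without cKO replicate 1) and Cs from 0.21 (without control replicate 2) to 1.01 (without control replicate 1). Only 2 of 12 glycogen genes were tested, with a median of -0.88. Ugp2, which makes the UDP-glucose used for glycogen, had 27 and 9 counts in the cKO pair against 50 and 69 in the control pair, or 109 and 101 CPM against 267 and 220 CPM, a log2 fold change of -1.19 ± 0.46 (SE; unadjusted p 0.0231, adjusted p 0.472). The 8 glycolysis regulators, such as the Pfkfb enzymes, had at most 4 counts each in a library and 0 were tested.

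Genes known as HIF1 targets or partners were examined next, since several glycolysis genes are such targets. Of 22 listed genes, 12 were tested and 0 called, with 3 higher and 0 lower at an unadjusted p under 0.05 and a median log2 fold change of 0.30. Over all tested genes 4.22% were higher and 4.17% lower at that p, and 0.848% were called. The median of the 12 was 0.086 with library totals and 0.67 without control replicate 1. Egln3, an oxygen-sensing prolyl hydroxylase that marks HIF1 for degradation and is itself induced by HIF1, had 30 and 14 counts in the cKO pair against 5 and 3 in the control pair. At 121 and 157 CPM against 26.7 and 9.58 CPM the groups were far apart. The log2 fold change of Egln3 was 2.98 ± 0.73 (SE; edgeR unadjusted p 0.0012, adjusted p 0.096), and 2.34 to 3.76 with each library left out. Egln3, 1 of the 3 genes higher at an unadjusted p under 0.05, passed the count filter only through its cKO counts. Its direction was therefore largely set by the filter and is given as a description. Egln1, a related hydroxylase, was counted 72 and 19 times in cKO, 13 and 31 times in control, or 291 and 214 CPM against 69.4 and 98.996 CPM, a log2 fold change of 1.58 ± 0.48 (SE; adjusted p 0.220). Car12, a carbonic anhydrase, was at 1.503 ± 0.69 (SE; adjusted p 0.590), and at 0.97 without control replicate 2. Hif1a itself lies outside the rule for named genes and was picked once its values were known. Its counts were 17 and 3 (cKO) and 26 and 21 (control), with a fitted log2 value of -0.86 ± 0.66 (SE; adjusted p 0.838). The 5 tested genes of the MYC and mTOR list had a median of 0.12, with Max at 0.33 ± 0.56 and Akt2 at -0.23 ± 0.58.

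**Figure D5:**
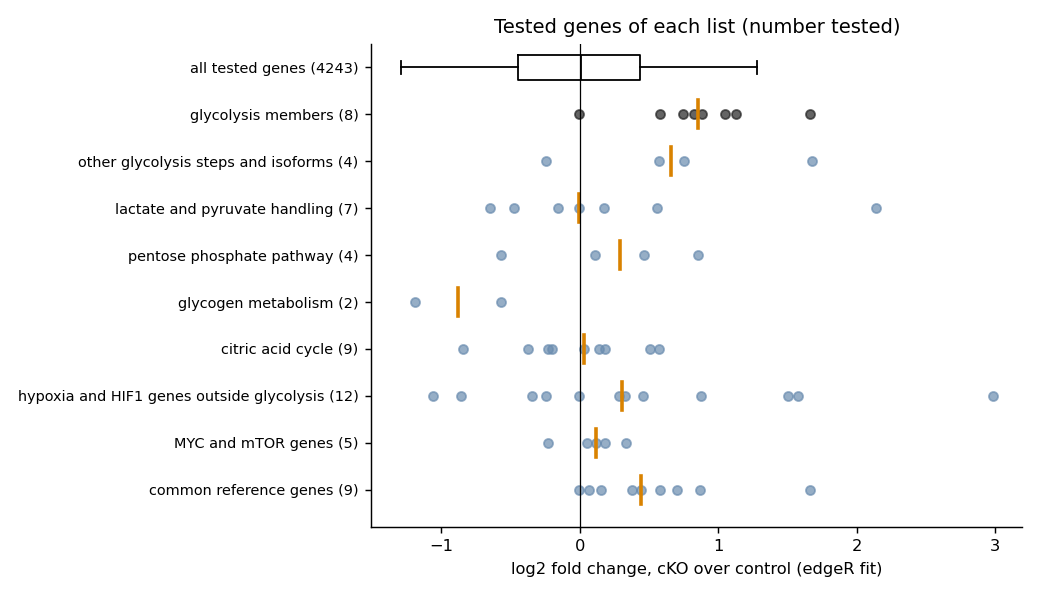
Log2 fold change of cKO over control (x axis, edgeR fit) of each tested gene in the glycolysis set and in 8 related lists (points; number tested in brackets; orange bars are list medians), with a box for all 4243 tested genes (median, quartiles and whiskers at the 5th and 95th percentile). The points are genes and not replicates. Of the glycolysis genes 7 lie above 0 and Hk1 lies at -0.01, with Gapdh alone beyond the upper whisker.

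Because Gapdh and Pgk1 serve as reference genes, they were set beside 11 other common reference genes. Of these, 7 were tested and 0 called (0.848% of all tested genes were), with log2 fold changes from -0.01 to 0.87 and a median of 0.38. For all 13 reference genes, Gapdh and Pgk1 included, the median was 0.44, and it was 0.21 with library totals and 0.21 to 0.86 with a library left out (lowest without cKO replicate 2, highest without control replicate 2). The summed share of the 13 was slightly lower in cKO (0.766% to 0.774%) than in control (0.792% to 0.811%). On the TMM scale their sum was higher in cKO (8827 and 10227 CPM) than in control (8671 and 8156 CPM), so its direction depended on scaling. Actb, which encodes beta-actin, had 830 and 419 counts in the cKO pair against 770 and 1116 in the control pair, a log2 fold change of 0.07 (edgeR adjusted p 0.997), and Rplp0 was at -0.01. For each 100 counts of Actb there were 6.99 and 5.49 counts of Gapdh in cKO and 1.69 and 2.33 in control. The same ratio for Ldha was 16.7 and 13.1 in cKO and 6.88 and 7.17 in control, so for both genes the groups stayed apart without any library scaling. For Pgk1 it was 1.93 and 1.19 against 0.779 and 1.34, and the groups overlapped.

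The genes whose values ran most like the glycolysis sum were found among 707 others with a mean of at least 50 counts and a count in every library, by the distance between centred log2 CPM values over the 4 libraries. The nearest was Higd1a, a mitochondrial protein also on the HIF1 list, at a distance of 0.16 log2 units and with 224 and 89 counts in the cKO pair against 108 and 144 in the control pair. Dbi, which binds acyl-CoA, followed at 0.21, Gpx1, a glutathione peroxidase, at 0.30, Cox5a, a subunit of cytochrome c oxidase, at 0.34 and Rpl34, a ribosomal protein, at 0.40. In all 5 both cKO libraries lay above both control libraries, as in the sum they were matched to, so this is a description with no test.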

How the data were processed

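Epidermal RNA was sequenced with a 3' transcriptome kit in 2 cKO and 2 control libraries, grouped by the genotype in their titles. The authors deposited whole-number counts per gene for each library, without normalisation, and per the file headers the table holds exon positions, strand and feature length. Trim Galore 0.6.7, Trimmomatic 0.39, cutadapt 3.7, STAR 2.7.10a, featureCounts 2.0.1 and GRCm39 are named in the submitters' processing notes. Collapsing of molecular identifiers, use of strand and counting of reads with several alignments are not given in the sources used here. Exons of Slc2a1, Hk1, Aldoa, Tpi1 and Gapdh share 25 to 342 bases with a gene on the opposite strand, and those genes had at most 3 counts in a library. Coordinates are those of the table.

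The counts were filtered with filterByExpr (minimum count 10, minimum total 15), scaled with TMM and tested in edgeR 4.0.16 (R 4.3.3) with glmQLFit and glmQLFTest in a model of genotype alone and Benjamini-Hochberg adjustment over all 4243 tested genes (threshold 0.05). Standard errors are the absolute log2 fold change over the square root of F, and are not given for fold changes near 0, where that ratio is unreliable. Slc2a1, Eno1 and Stim2 were read from the fit without a filter. In 3 draws of simulated data, the fit called 0% to 2% of genes given a log2 change of 1 and 26% to 36% at a log2 change of 2. Having 0 glycolysis genes called therefore does not show that changes of the fitted size are absent. Alternatives used DESeq2 1.42.0, limma-voom (limma 3.58.1), other scalings, filters and thresholds, a replicate block and each library left out; copies were found with blastn 2.17.0 in GENCODE M21 transcripts.

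The glycolysis genes and all lists were chosen with earlier results of these data known. The genes named are the 10 of the set, the tested genes among the other glycolysis genes, and in each further list those at an unadjusted p under 0.05 or, where none was, the 2 with the largest absolute log2 fold change. The 5 genes most like the glycolysis sum are also named.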

Additional observations from a re-analysis of the deposited data

How the results depend on the processing

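With each library left out in turn, the number of genes called ranged from 34 to 59 higher and from 8 to 34 lower (28 and 8 with all libraries). The count was 49 higher and 26 lower without a count filter, 12 and 3 with limma-voom, 43 and 17 at an adjusted p of 0.1, and 15 lower with a mean of at least 10 CPM. With the replicate number as a block it was 16 and 1. Libraries of the same number deviated in opposite directions (correlation -0.20 across genes), and with crossed numbers as a block, chosen after seeing the data, 90 genes were called higher and 57 lower, with 1 glycolysis gene (Gapdh, adjusted p 0.0213) among them. In every other alternative 0 glycolysis genes were called in either direction. Their median log2 fold change of 0.86 was 0.63 with library totals, a scaling that moved the median of all genes to -0.21, and ran from 0.79 to 1.22 with a library left out, where 5 to 9 of them were tested. The ratio of summed shares, 1.72, was 1.93 without the 20 most abundant genes, 2.03 on the TMM scale, and 1.60 to 1.87 with a library left out. Hk1 changed sign, at 0.00039 with DESeq2 size factors, and it ranged from -0.15 to 0.70 with a library left out. So did Ldhb (-6.41 to 0.46, where the lower value is fitted to a lone cKO library with 0 counts and is no measure of size), Max (-0.080 to 0.86) and Akt2 (-1.03 to 0.34). Medians of the lists for lactate and pyruvate, pentose phosphate, the citric acid cycle and MYC and mTOR, all near 0, also took both signs. The causes were not tested. The other directions of the 8 tested glycolysis genes held in all alternatives that tested them. Depth limits most the genes with at most 19 counts in a library (Slc2a1, Hk1, Pgk1, Pgam1 and Eno1), and cKO replicate 2 most among the libraries.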
